A study of Caenorhabditis elegans with 12 samples.

Results

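Argonautes are proteins that bind a small RNA and use it as a guide to matching transcripts. 10 *C. elegans* genes that encode them, of 46925 genes in each file, were followed by name through 4 groups of genotype and day: the miRNA Argonautes *alg-1* and *alg-2*, the primary siRNA Argonautes *rde-1*, *ergo-1*, *alg-3* and *alg-4*, and the secondary siRNA Argonautes *hrde-1*, *nrde-3*, *ppw-1* and *ppw-2*. All 10 symbols matched a gene of the files. A primary Argonaute is loaded by Dicer with a first small RNA, from outside dsRNA in the case of RDE-1 or from the animal's own transcripts in the case of ERGO-1, in oocytes and embryos, and of ALG-3 and ALG-4, in developing sperm. RNA-dependent RNA polymerases then copy the target into many short secondary siRNAs, which load worm-specific Argonautes that act in the cytoplasm or, for HRDE-1 in the germ line and NRDE-3 in the soma, in the nucleus. The miRNA Argonautes follow a separate route, in which small RNAs cut from hairpins lower the output of matching mRNAs through the silencing complex.

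RNA was taken from whole animals grown on HT115 bacteria, in 12 libraries. They were *sams-1* animals at D1, wild-type animals at D1, *sams-1* animals at D7 and wild-type animals at D7 of adulthood, with 3 libraries in each group, numbered 1, 3 and 5. The gene *sams-1* codes for a synthase of S-adenosylmethionine, the methyl donor of the cell. The study's text describes a *sams-1(lof)* strain beside the N2 wild type, while the sample labels give RNAi or control treatment of animals whose genotype is wild type, so which of these was applied cannot be told apart here. Library totals of expected counts were 5564069 to 6715897 for *sams-1* D1, 4505376 to 7568388 for wild type D1, 3939023 to 6020721 for *sams-1* D7 and 6569831 to 6967830 for wild type D7.

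The mRNA of the targeted gene did not fall in *sams-1* libraries. Its level was 228, 231 and 246 CPM (counts scaled by library total and TMM factor) in *sams-1* D1 libraries, against 163, 102 and 181 CPM in wild type D1 libraries. At D7 it stood at 35.7, 72.4 and 51.4 CPM in *sams-1* libraries, against 13.2, 20.02 and 17.6 CPM in wild-type libraries. The log2 fold change was 0.46 (SE 0.26, edgeR adjusted p = 0.146) at D1, where scaling on muscle markers turned it to -1.13, and 1.72 (SE 0.27, edgeR adjusted p = 0.000318) at D7, where that scaling gave 0.68 (edgeR adjusted p = 0.0888) and ended the call. Because this goes against the label, *sams-1* below always means the libraries labelled *sams-1*. The counts cover the whole gene, so they would include any transcripts that a deletion leaves in place. Whether such transcripts enter these values was not tested.

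The balance of tissues in these whole-animal libraries also differed between the groups. The 24 germ line markers summed to 1334 to 2487 CPM in *sams-1* D1 libraries against 5830.3 to 8279 CPM in wild type D1 libraries, and to 2385 to 2957 CPM in *sams-1* D7 libraries against 8131 to 8971 CPM in wild type D7 libraries. Of these 24 genes 16 fell at D1 and 23 at D7 and none rose, while 13 of 17 intestine markers rose at D1 and 12 at D7. Of 25 body wall muscle markers 11 rose and none fell at D1, and 18 rose and 1 fell at D7, and none of the germ line, oocyte, muscle or intestine lists had a marker at 0 in every library of a group. In bulk RNA, fewer cells of a type and less RNA per cell cannot be told apart. At D1, wild-type replicate 5 and *sams-1* replicate 1 stood apart from the other libraries of their groups, and results at D1 are therefore also given without both of them. That alternative was added once the values had been looked at.

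The levels of the 10 genes can be compared per transcript length in TPM (a share of all transcripts, corrected for their length). *hrde-1* was the most abundant of them in all 4 groups, with a mean of 66.9 ± 40.8 TPM in *sams-1* D1, 380.1 ± 39.2 TPM in wild type D1, 145 ± 6.15 TPM in *sams-1* D7 and 484 ± 24.3 TPM in wild type D7 (SD, n = 3 in each). In wild type at both ages the order by mean TPM continued with *ergo-1*, *ppw-1*, *ppw-2*, *rde-1*, *alg-2*, *nrde-3* and *alg-1*, and ended with *alg-3* and *alg-4*. At D7 in wild type only *alg-3* and *alg-4* had overlapping library ranges as neighbours in this order, whereas at D1 the pairs *ppw-1* with *ppw-2*, *ppw-2* with *rde-1*, *nrde-3* with *alg-1*, and *alg-3* with *alg-4* also could not be told apart. In *sams-1* at D1 the order below *hrde-1* was *ppw-1*, *ppw-2*, *ergo-1*, *rde-1*, *alg-1*, *alg-2*, *alg-4*, *alg-3* and *nrde-3*, and every neighbouring pair from *ppw-1* down to *alg-3* overlapped. In *sams-1* at D7 it was *ergo-1*, *ppw-1*, *ppw-2*, *rde-1*, *alg-2*, *alg-1*, *nrde-3*, *alg-4* and *alg-3*, with the neighbours overlapping from *ergo-1* to *ppw-1*, from *ppw-2* to *rde-1*, from *alg-2* through *alg-1* to *nrde-3*, and from *alg-4* to *alg-3*. The 10 genes together summed to 218 TPM in *sams-1* D1 against 734 TPM in wild type D1, and to 318.0 TPM in *sams-1* D7 against 928 TPM in wild type D7, as means of 3 libraries.

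**Figure D1:**
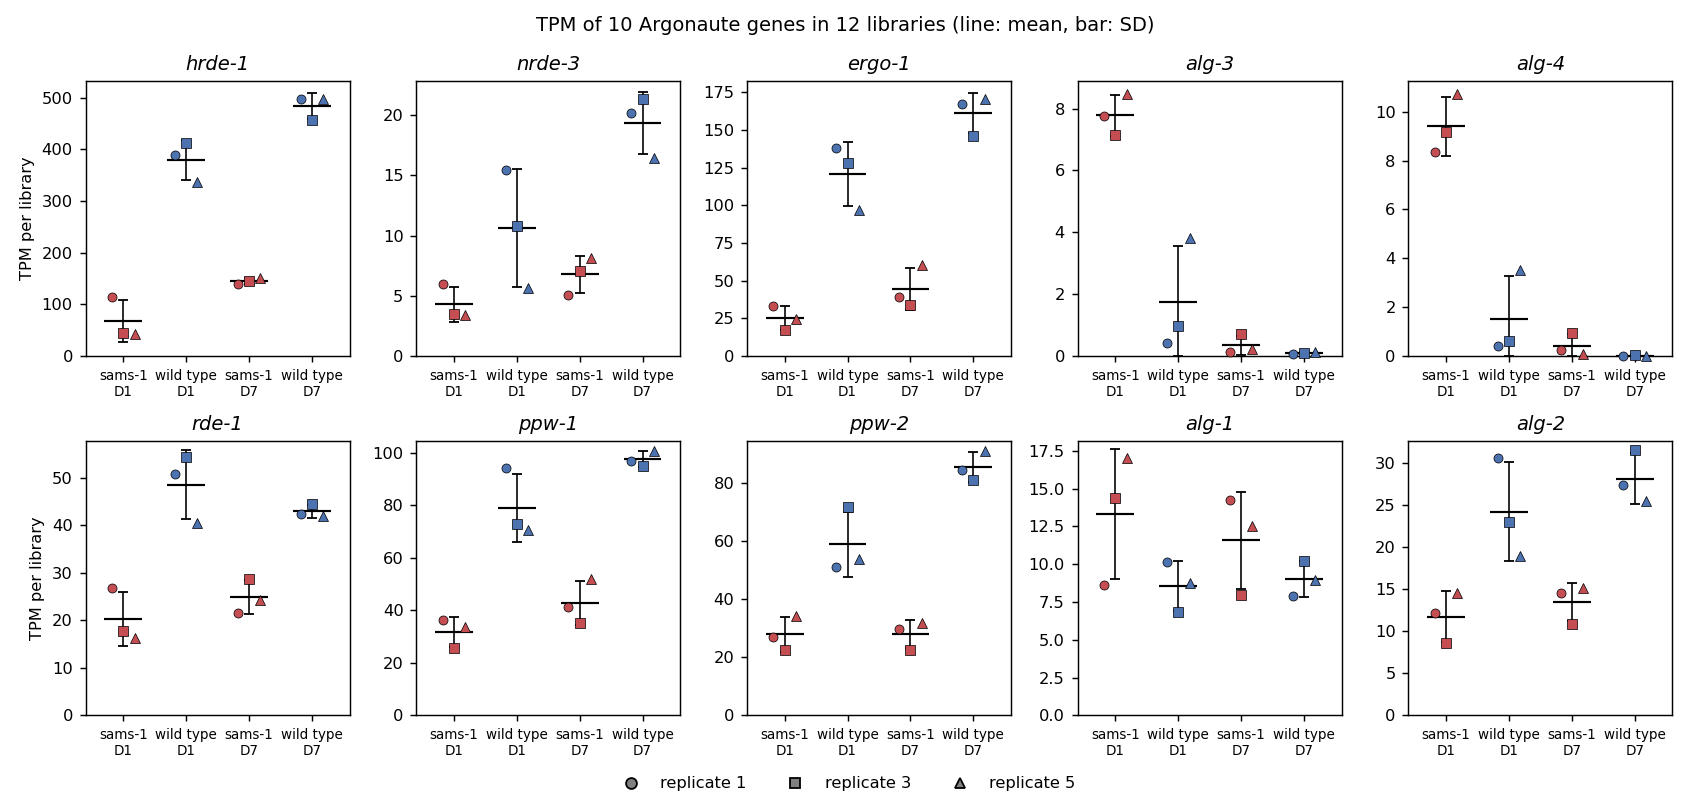
TPM of each of the 10 Argonaute genes (y axis, linear, a separate range for each gene) in the 4 groups (x axis), with 1 point per library, shaped by replicate number, the group mean as a line and the SD as a bar cut at 0. For *hrde-1* all *sams-1* points lie below all wild-type points at both ages, and *alg-3* and *alg-4* are highest in *sams-1* D1.

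In the main contrast of the study, *sams-1* against wild type, most of these genes were lower. At D1, 4 of the 10 fell (*rde-1*, *ergo-1*, *hrde-1* and *ppw-1*) and none rose at an adjusted p under 0.01, where 16.8% of the 12956 genes tested were lower and 17.4% higher. At D7, 7 of the 8 genes that passed the filter on low counts fell and none rose, where 29.4% of the 12242 genes tested were lower and 35.6% higher; *alg-1* was the exception, and *alg-3* and *alg-4* were not tested at D7 because their counts were too low. The 4 genes lower at D1 were also lower at D7. The median log2 fold change over the members tested was -1.12 at D1 beside 0.58 over all genes, and -1.31 at D7 beside 0.13 over all genes. By an unadjusted p under 0.05, 2 members were higher at D1 and none at D7, and DESeq2 called 2 higher at D1 (*alg-3* and *alg-4*) and none at D7. Of all genes tested, DESeq2 called 2854 of 12956 higher at D1 and 4288 of 12242 at D7. The CPM ranges of the 2 genotypes did not overlap for 7 of the 10 members tested at D1 and 7 of the 8 tested at D7. Of all genes tested, 75.3% did not overlap at D1 and 79.9% at D7. Of the members not tested at D7, *alg-4* did not overlap and *alg-3* did.

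The number of D1 calls changed when single libraries were left out. The share of all genes that passed in those reduced fits was not counted, so the change is not particular to these genes as far as shown. With wild-type D1 replicate 1 or 3, or *sams-1* D1 replicate 3 or 5, left out, none of the 4 passed, at edgeR adjusted p-values up to 0.0308 for *rde-1*, 0.0204 for *ergo-1*, 0.0217 for *hrde-1* and 0.0237 for *ppw-1*, and with each library left out in turn all 4 log2 fold changes stayed below 0. Without wild-type replicate 5 and *sams-1* replicate 1 together, 5 members fell and 2 rose at D1. In that fit 3782 of all 13664 genes tested fell and 4343 rose.

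Among the nuclear Argonautes, *hrde-1* (chromosome III, 4172337 to 4176159 of WBcel235, minus strand), whose protein carries heritable silencing into the germ line nucleus, showed the lowest fold of the 10 at D1. It had 114, 44.03 and 42.7 TPM in *sams-1* D1 replicates 1, 3 and 5, against 390.2, 413 and 337 TPM in wild type D1. At D7 it had 139, 145 and 152 TPM in *sams-1* libraries, against 498, 456 and 498 TPM in wild-type libraries. No *sams-1* library reached the lowest wild-type library at either age, and *sams-1* D1 replicate 1 stood well above the other two of its group. The log2 fold change was -2.49 (SE 0.40, edgeR adjusted p = 0.00364) at D1, or 0.178 times the wild-type level, and -1.69 (SE 0.11, edgeR adjusted p = 6.1e-06) at D7, or 0.311 times. In the same libraries the germ line marker sum was 2487 CPM in *sams-1* D1 replicate 1 and 1334 and 1460.3 CPM in replicates 3 and 5; its part in the *hrde-1* values was not tested.

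*nrde-3* (chromosome X, 372235 to 376900, plus strand), the nuclear Argonaute of somatic cells, was far less abundant. It had 5.96, 3.50 and 3.43 TPM in *sams-1* D1 libraries, against 15.4, 10.8 and 5.61 TPM in wild type D1, where replicate 5 fell inside the *sams-1* range. At D7 the groups did not overlap, with 5.10, 7.08 and 8.14 TPM in *sams-1* and 20.2, 21.4 and 16.5 TPM in wild type. The log2 fold change was -1.27 (SE 0.43, edgeR adjusted p = 0.0335) at D1, which did not pass, and -1.46 (SE 0.20, edgeR adjusted p = 0.000127) at D7. Without the 2 D1 libraries that stood apart, *nrde-3* also passed at D1, at -1.92 (edgeR adjusted p = 0.0017).

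The 3 Argonautes of 26G siRNAs, which are named for their length and first base, did not move together. *ergo-1* (chromosome V, 1008803 to 1018352, plus strand), the 26G Argonaute of oocytes and embryos, had 33.1, 17.5 and 24.4 TPM in *sams-1* D1 libraries, against 138, 128 and 96.9 TPM in wild type D1. At D7 it had 39.0, 33.6 and 60.2 TPM in *sams-1* libraries, against 167, 146 and 171 TPM in wild-type libraries. The groups were well apart at both ages, and *ergo-1* fell by 2.23 on the log2 scale (SE 0.33, edgeR adjusted p = 0.00303) at D1 and by 1.81 (SE 0.13, edgeR adjusted p = 7.8e-06) at D7. Its exons share 17 bases with *pei-2* on the other strand. The 18 oocyte markers summed to 1120.3 to 6525 CPM in *sams-1* D1 against 16536 to 26628 CPM in wild type D1, and to 7901 to 9544 CPM in *sams-1* D7 against 26446 to 27434 CPM in wild type D7, and 8 of them fell at D1 and all 18 at D7; their part in the *ergo-1* values was not tested.

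*alg-3* (chromosome IV, 11704246 to 11708264, plus strand) and *alg-4* (chromosome III, 9887209 to 9891424, minus strand), the pair that acts in sperm development, ran the other way at D1. *alg-3* had 28.0, 30.3 and 34.9 CPM in *sams-1* D1 libraries, against 1.51, 3.24 and 12.0 CPM in wild type D1. *alg-4* had 30.3, 36.2 and 44.9 CPM in *sams-1* D1 libraries, against 1.51, 2.11 and 11.2 CPM in wild type D1. All 3 *sams-1* libraries stood above all 3 wild-type libraries for both genes, and within wild type replicate 5 was highest for both. The log2 fold changes were 2.26 (SE 0.73, edgeR adjusted p = 0.0300) for *alg-3* and 2.69 (SE 0.78, edgeR adjusted p = 0.0199) for *alg-4*, and neither passed the threshold. Leaving out wild type D1 replicate 5 alone gave 3.46 for *alg-3* and 4.11 for *alg-4*, both at an edgeR adjusted p of 0.00829, and both also passed in DESeq2 and in a fit to all 12 libraries. Muscle marker scaling lowered them to 0.62 (edgeR adjusted p = 0.551) and 1.12 (edgeR adjusted p = 0.225).

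By D7 the transcripts of both sperm Argonautes were close to the limit of counting. *alg-3* had 2, 11 and 5 counts in *sams-1* D7 libraries, against 1, 2 and 3 counts in wild type D7 libraries, and *alg-4* had 4, 15 and 2 counts in *sams-1* D7 against 0, 1 and 0 counts in wild type D7. Counts were summed over 3 libraries and scaled by library total and TMM factor. On this scale *alg-3* stood 3.35 times higher in *sams-1* D7 (18 counts) than in wild type D7 (6 counts). The exact 95% Poisson interval of 1.27 to 10.3 covers counting error only. For *alg-4*, 21 counts in *sams-1* D7 against 1 count in wild type D7 gave a ratio of 23.5 with an interval of 3.77 to 970, and 1 *sams-1* library, replicate 3, held 15 of the 21 counts. With no filter on low counts, *alg-4* passed at D7, at a log2 fold change of 4.22 (edgeR adjusted p = 0.00837), and *alg-3* did not, at 1.75 (edgeR adjusted p = 0.121).

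The 17 sperm markers summed to 531, 561 and 568 CPM in *sams-1* D1 libraries, against 139, 214 and 579 CPM in wild type D1 libraries. Wild-type replicate 5, the highest wild-type library for *alg-3* and *alg-4*, was thus level with the *sams-1* libraries in this sum, while its *alg-3* and *alg-4* values stayed below theirs. At D7 the sums were 150, 123 and 93.1 CPM in *sams-1* and 119, 128 and 124 CPM in wild type, with 2 of the 17 markers at 0 in all wild type D7 libraries. By group means, most of these D7 sums came from *fog-1* and *spe-44*. *fog-1* averaged 60.3 CPM in *sams-1* D7 and 85.0 CPM in wild type D7. *spe-44* averaged 16.8 CPM in *sams-1* D7 and 30.2 CPM in wild type D7. At D1, 1 of the 16 sperm markers tested rose and 1 fell, and at D7, 6 of the 9 tested rose and 1 fell. The median log2 fold change over the 9 tested at D7 was 2.74, so the level D7 sums do not describe most of these markers. The part of sperm content in the *alg-3* and *alg-4* values was not tested.

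**Figure D2:**
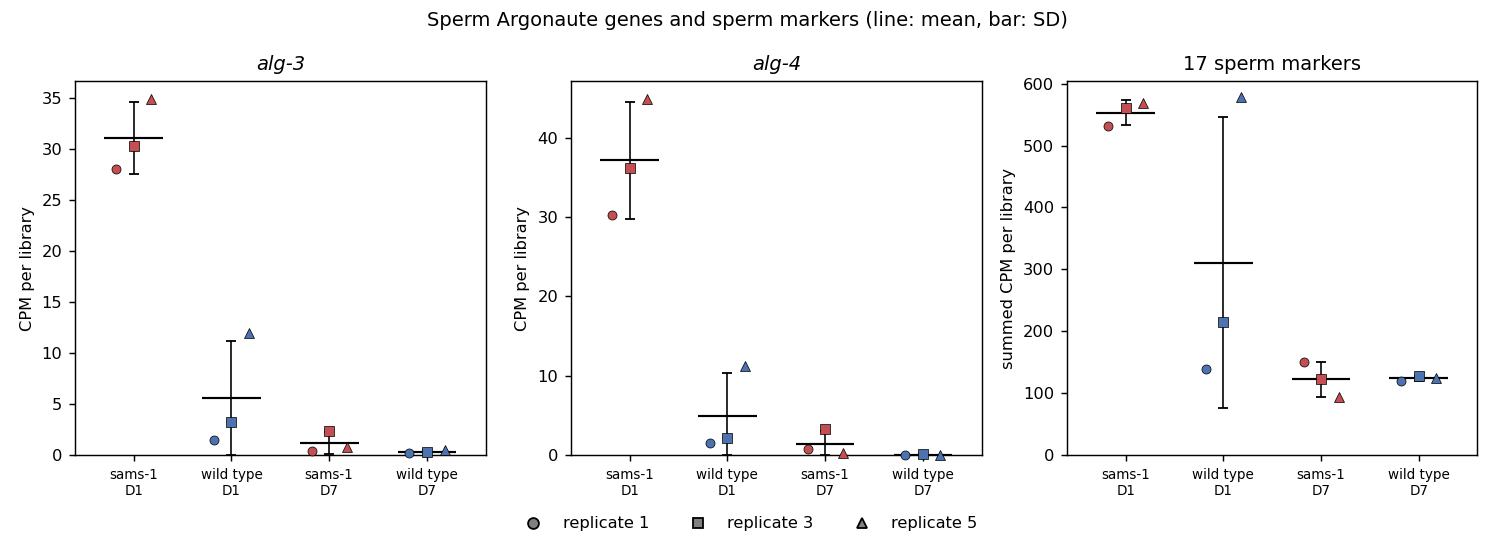
CPM of *alg-3* and *alg-4* and the summed CPM of 17 sperm markers (y axes, linear) in the 4 groups (x axis), 1 point per library shaped by replicate number, with the mean as a line and the SD as a bar cut at 0. At D1 *alg-3* and *alg-4* are at least 28.0 CPM in every *sams-1* library and at most 12.0 CPM in wild type, and the summed markers of wild-type replicate 5 reach the *sams-1* libraries.

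*rde-1* (chromosome V, 9987916 to 9991642, minus strand), which the response to experimentally fed dsRNA requires, was lower at both ages. It had 26.7, 17.8 and 16.4 TPM in *sams-1* D1 libraries, against 50.8, 54.3 and 40.4 TPM in wild type D1. At D7 it had 21.6, 28.6 and 24.3 TPM in *sams-1*, against 42.4, 44.4 and 41.9 TPM in wild type. The groups did not overlap, and the log2 fold change was -1.21 (SE 0.24, edgeR adjusted p = 0.0057) at D1 and -0.74 (SE 0.14, edgeR adjusted p = 0.000819) at D7. Its D7 difference was below 2-fold, at 0.599 times the wild-type level. Scaled to library totals alone, *rde-1* passed at neither age (-1.01, edgeR adjusted p = 0.012, at D1 and -0.46, edgeR adjusted p = 0.016, at D7).

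The 2 cytoplasmic secondary Argonautes, *ppw-1* (chromosome I, 4185174 to 4189956, plus strand), which is needed for RNAi in the germ line, and *ppw-2* (chromosome I, 5158511 to 5162232, minus strand), were at like levels. *ppw-1* had 36.2, 25.5 and 33.6 TPM in *sams-1* D1 libraries, against 94.0, 72.8 and 70.5 TPM in wild type D1, and 41.2, 35.3 and 51.8 TPM in *sams-1* D7 against 96.9, 94.99 and 101 TPM in wild type D7. *ppw-2* had 26.9, 22.4 and 34.2 TPM in *sams-1* D1 libraries, against 50.9, 71.7 and 53.8 TPM in wild type D1, and 29.8, 22.6 and 31.8 TPM in *sams-1* D7 against 84.2, 80.9 and 90.9 TPM in wild type D7. No library range of one genotype reached the other for either gene. *ppw-1* fell by 1.26 on the log2 scale (SE 0.22, edgeR adjusted p = 0.00433) at D1 and by 1.16 (SE 0.14, edgeR adjusted p = 6.9e-05) at D7. *ppw-2* differed by -1.02 (SE 0.25, edgeR adjusted p = 0.012) at D1, just outside the threshold, and fell by 1.56 (SE 0.14, edgeR adjusted p = 1.3e-05) at D7. All 12 counts of *ppw-1* were fractional, and no other member had a fractional count, so *ppw-1* shares reads with a near-identical gene and its values are uncertain.

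The miRNA Argonautes *alg-1* (chromosome X, 13949110 to 13956261, plus strand) and *alg-2* (chromosome II, 873212 to 879885, plus strand), which have overlapping functions in development, parted. *alg-1* had 8.63, 14.4 and 17.02 TPM in *sams-1* D1 libraries, against 10.2, 6.87 and 8.73 TPM in wild type D1, and 14.2, 7.99 and 12.5 TPM in *sams-1* D7 against 7.90, 10.2 and 8.95 TPM in wild type D7. *alg-2* had 12.1, 8.59 and 14.6 TPM in *sams-1* D1 libraries, against 30.6, 23.1 and 19.0 TPM in wild type D1, and 14.5, 10.9 and 15.1 TPM in *sams-1* D7 against 27.4, 31.5 and 25.5 TPM in wild type D7. The *alg-1* ranges overlapped at both ages, while the *alg-2* TPM ranges did not. In CPM the *alg-2* ranges did overlap at D1, where *sams-1* reached 61.6 CPM and wild type began at 58.9 CPM. For *alg-1* the log2 fold change was 0.75 (SE 0.35, 95% interval -0.21 to 1.71, edgeR adjusted p = 0.0897) at D1 and 0.38 (SE 0.21, interval -0.21 to 0.97, edgeR adjusted p = 0.128) at D7, and its sign turned under muscle marker scaling (-0.80 at D1 and -0.78 at D7). *alg-2* differed by -0.92 (SE 0.29, edgeR adjusted p = 0.0263) at D1 and fell by 0.96 (SE 0.16, edgeR adjusted p = 0.000371) at D7. Without *sams-1* D7 replicate 3, the lowest of its group, *alg-1* passed as higher at D7 (0.58, edgeR adjusted p = 0.00227). The exons of *alg-1* also hold 96 bases of the snoRNA gene *K02B9.10* on the same strand.

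A ratio of 2 genes within a library does not depend on how the libraries are scaled to each other. The ratio of *alg-1* to *alg-2* TPM was 0.712, 1.68 and 1.17 in *sams-1* D1 libraries, against 0.332, 0.298 and 0.459 in wild type D1 libraries. At D7 it was 0.979, 0.732 and 0.829 in *sams-1* libraries, against 0.288, 0.324 and 0.35 in wild-type libraries. Every *sams-1* library stood above every wild-type library of its age, by a mean log2 difference of 1.65 at D1 and 1.39 at D7. An exact two-sided permutation test over the 400 ways to reassign genotype within age gave p = 0.005, the smallest it can give, and 0.015 after Benjamini-Hochberg adjustment over the 3 ratios tested, which were chosen after the values were seen.

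The ratio of the 2 nuclear Argonautes, *hrde-1* to *nrde-3*, was 19.1, 12.6 and 12.4 in *sams-1* D1 libraries, against 25.3, 38.2 and 60.04 in wild type D1 libraries. At D7 the groups overlapped, with 27.4, 20.5 and 18.6 in *sams-1* and 24.7, 21.4 and 30.2 in wild type. The log2 difference was -1.42 at D1 and -0.20 at D7 (exact two-sided permutation p = 0.02, adjusted 0.03), and the adjusted value went past 0.05 when any 1 of 7 libraries was left out, up to 0.075 without *sams-1* D1 replicate 3 or 5. The other libraries of which that holds were wild type D1 replicate 5 (0.0525), wild type D7 replicate 5 (0.0675), *sams-1* D1 replicate 1 (0.0525) and *sams-1* D7 replicates 3 (0.0525) and 5 (0.0675). The ratio of *ppw-1* to *ppw-2* ranged between 0.983 and 1.35 in *sams-1* D1 against 1.02 and 1.85 in wild type D1, and between 1.383 and 1.627 in *sams-1* D7 against 1.11 and 1.17 in wild type D7. Its log2 difference was -0.24 at D1, where the ranges overlapped, and 0.41 at D7, where they did not. The test over both ages, in which opposite signs cancel, gave an exact two-sided permutation p = 0.625 (adjusted 0.625), and neither age was tested alone.

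**Figure D3:**
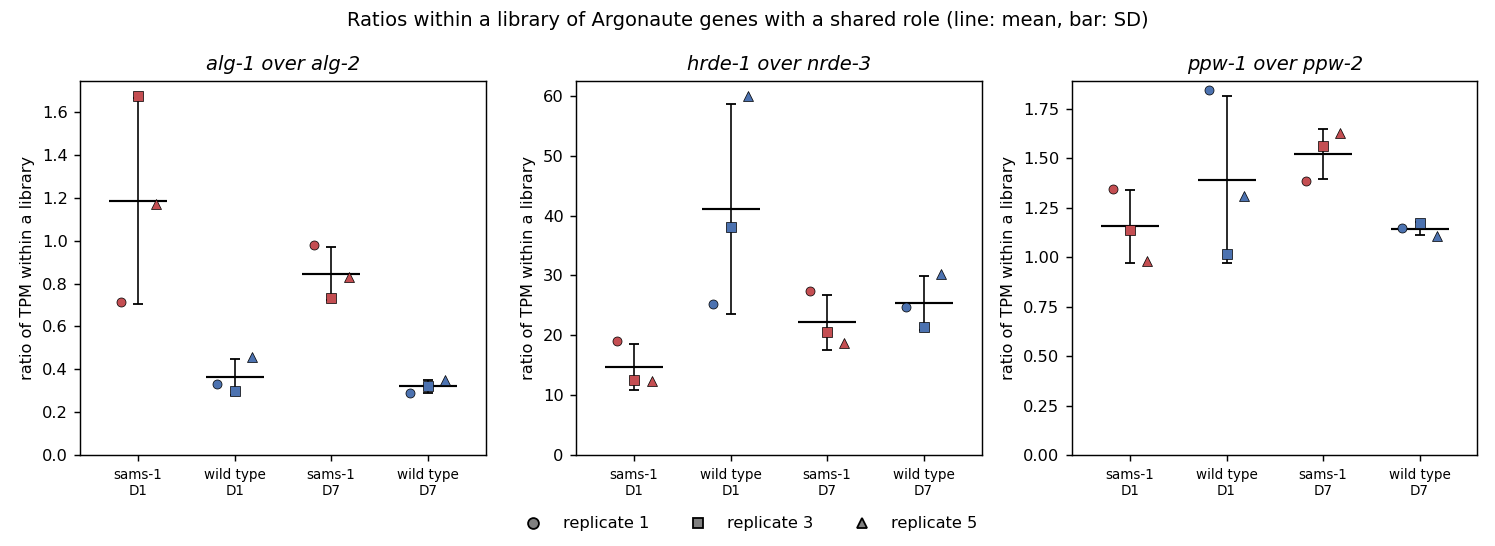
Ratio of TPM within each library (y axis, linear) of *alg-1* to *alg-2*, *hrde-1* to *nrde-3* and *ppw-1* to *ppw-2* in the 4 groups (x axis), 1 point per library shaped by replicate number, with the mean as a line and the SD as a bar. The *alg-1* to *alg-2* ratio is at least 0.712 in all *sams-1* libraries and at most 0.459 in wild type.

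Set against the germ line markers themselves, the same genes parted differently. Scaled so that the median ratio of the 24 germ line markers was level between libraries, *hrde-1* stood at -0.40 (SE 0.31, 95% interval -1.26 to 0.47) at D1 and -0.06 (SE 0.11, interval -0.38 to 0.25) at D7, and *ergo-1* at -0.05 (SE 0.26, interval -0.77 to 0.68) at D1 and -0.19 (SE 0.11, interval -0.50 to 0.11) at D7. Neither gene passed the test on this scale, and with oocyte markers in place of germ line markers the D1 values turned to 0.84 (edgeR adjusted p = 0.364) for *hrde-1* and 1.37 (edgeR adjusted p = 0.108) for *ergo-1*. Relative to these markers 4 members were higher and none lower at D1 (*alg-1*, *alg-3*, *alg-4* and *rde-1*), where 61.5% of all genes tested were higher and 0.0849% lower, and 4 were higher and none lower at D7 (*alg-1*, *alg-2*, *rde-1* and *ppw-1*), where 80.5% were higher and 0.123% lower. No member had an unadjusted p under 0.05 in the lower direction and DESeq2 called none lower at either age. *alg-1* led the non-sperm members on this scale, with a log2 fold change of 3.10 (SE 0.54, edgeR adjusted p = 0.00174) at D1 and 1.99 (SE 0.22, edgeR adjusted p = 1.4e-05) at D7. The median over the members was 1.12 at D1 beside 2.82 over all genes, and 0.30 at D7 beside 1.75 over all genes. The D1 count was 0 without wild-type replicate 3, 1 without *sams-1* replicate 3 or 5, and 7 without *sams-1* replicate 1, and the D7 count was 2 without wild-type replicate 1 or 5 or *sams-1* replicate 1.

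**Figure D4:**
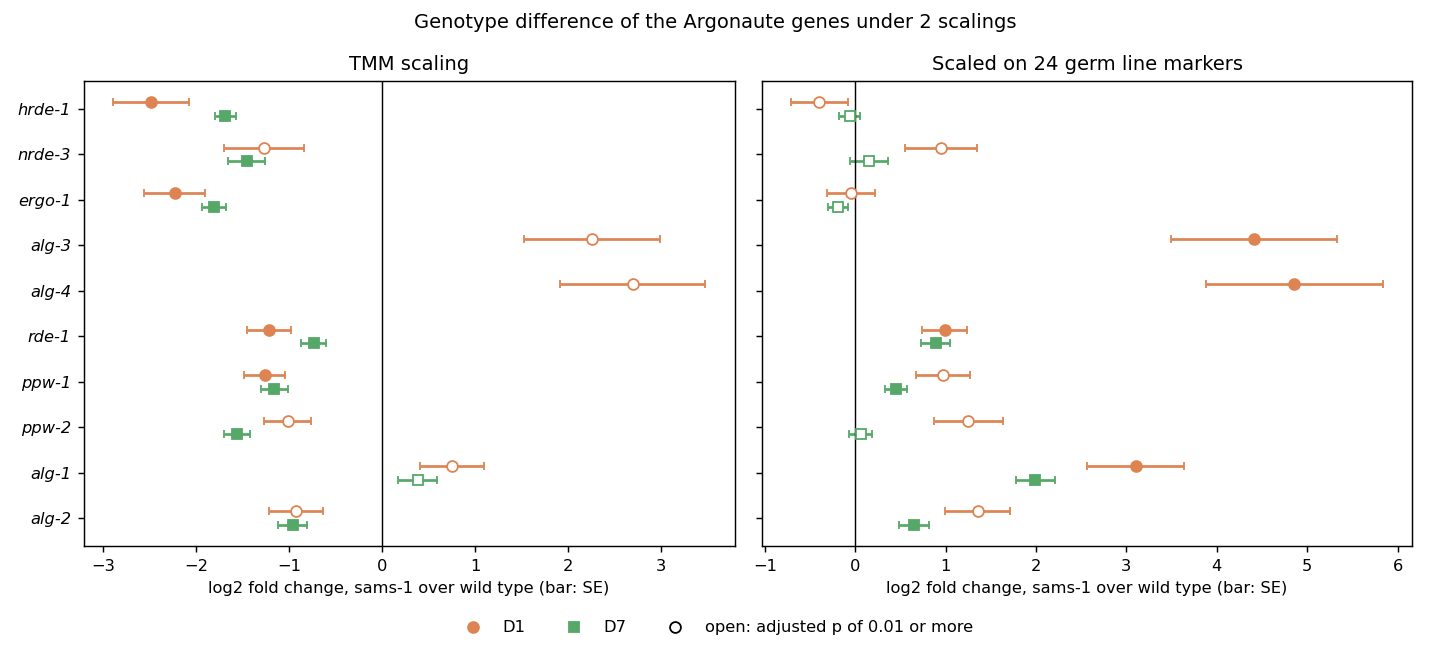
Log2 fold change of *sams-1* over wild type (x axis, bars are SE) for the 10 Argonaute genes (y axis) at D1 (circles) and D7 (squares), with TMM scaling at the left and scaling on 24 germ line markers at the right; filled points passed an adjusted p of 0.01 and open points did not. *hrde-1* and *ergo-1* lie near -2 at the left and near 0 at the right, and *alg-3* and *alg-4*, not tested at D7, have D1 points alone.

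Age changed 2 of the 10 genes in each genotype, although the wild-type calls were close to the threshold. *alg-3* fell to 0.12, 0.70 and 0.23 TPM in *sams-1* D7 libraries, against 7.76, 7.14 and 8.47 TPM in *sams-1* D1 libraries, and *alg-4* to 0.23, 0.95 and 0.09 TPM in *sams-1* D7 against 8.34, 9.18 and 10.7 TPM in *sams-1* D1. In wild type *alg-3* fell to 0.050, 0.10 and 0.14 TPM at D7, against 0.43, 0.98 and 3.82 TPM at D1, and *alg-4* was listed at 0, 0.050 and 0 TPM at D7, against 0.42, 0.63 and 3.52 TPM at D1. The D7 and D1 libraries did not overlap for either gene in either genotype. In *sams-1* the log2 fold change of D7 over D1 was -4.75 (SE 0.77, edgeR adjusted p = 0.0023) for *alg-3* and -4.74 (SE 0.87, edgeR adjusted p = 0.00399) for *alg-4*, and in wild type it was -3.98 (SE 0.86, edgeR adjusted p = 0.00957) and -6.005 (SE 1.27, edgeR adjusted p = 0.00872). Of the 16 sperm markers tested, 7 fell and 1 rose with age in *sams-1* (median log2 fold change -3.48). In wild type 4 of them fell and none rose (median -3.65). The part of sperm content in these age differences was not tested. From summed counts scaled by library total and TMM factor, D1 over D7 was 28.2 (exact 95% Poisson interval 17.7 to 47.9) for *alg-3* and 28.7 (18.6 to 46.7) for *alg-4* in *sams-1*, and 15.5 (6.84 to 43.3) for *alg-3* and 81.5 (14.2 to 3260) for *alg-4* in wild type, where D7 held 6 counts and 1 count.

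No member rose with age under TMM scaling, whereas muscle marker scaling, which moved the median of all genes to 1.14 in wild type and 1.68 in *sams-1*, gave 6 members higher in wild type and 7 in *sams-1*. Muscle marker scaling also gave 3832 of all 14193 genes tested higher in wild type and 7973 in *sams-1*. Under TMM scaling, 2.94% of the 14193 genes tested were lower and 2.94% higher at D7 in wild type, and 6.34% were lower and 3.29% higher at D7 in *sams-1*. By an unadjusted p under 0.05, 3 members were higher in wild type and 2 in *sams-1*, and DESeq2 called none higher, both with their usual scaling. In wild type *nrde-3* differed by 0.85 (SE 0.35, edgeR adjusted p = 0.121), *ergo-1* by 0.60 (SE 0.26, edgeR adjusted p = 0.149) and *ppw-2* by 0.56 (SE 0.21, edgeR adjusted p = 0.0907), and their D7 and D1 libraries did not overlap. In *sams-1*, *hrde-1* differed by 0.91 (SE 0.29, edgeR adjusted p = 0.0351) and *ergo-1* by 0.77 (SE 0.27, edgeR adjusted p = 0.0477), and both passed without the 2 D1 libraries that stood apart, at 1.43 (edgeR adjusted p = 4.2e-05) and 1.00 (edgeR adjusted p = 0.003). The ranges of D7 and D1 did not overlap for 6 members in wild type and 4 in *sams-1*, where 40.4% and 41.3% of all genes did not. In wild type both calls were lost with the replicate block (-3.81, edgeR adjusted p = 0.0126, for *alg-3* and -5.87, edgeR adjusted p = 0.0163, for *alg-4*) and with library totals (-4.22, edgeR adjusted p = 0.0111, and -6.20, edgeR adjusted p = 0.0105), at folds of like size. Both were also lost without wild type D1 replicate 5, any 1 wild type D7 library, *sams-1* D1 replicate 3 or 5, or *sams-1* D7 replicate 1 or 5, and 1 of the 2 was lost without wild type D1 replicate 3 or *sams-1* D7 replicate 3. In *sams-1* both were lost without D7 replicate 1 or 5, and 1 without wild type D7 replicate 3 or *sams-1* D1 replicate 3 or 5.

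The genotype difference was not shown to change with age for any of the 10 genes. The interaction, coded as the D7 difference minus the D1 difference, passed for none of them, where 0.0141% of all genes passed in the higher and 0.0141% in the lower direction. By an unadjusted p under 0.05, 1 member was lower, none was higher, and DESeq2 called none in either direction. That member was *ppw-2*, at -0.81 (SE 0.30, 95% interval -1.50 to -0.13, edgeR adjusted p = 0.168). *hrde-1* stood at 0.54 (SE 0.41, interval -0.40 to 1.48, edgeR adjusted p = 0.489), and without *sams-1* D1 replicate 1 it passed at 1.48 (edgeR adjusted p = 0.000551). These comparisons share libraries with the ones above, since each group enters more than one of them.

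The shares of the 10 genes in their summed TPM show the same libraries without any scaling between them. *hrde-1* made up 29.1% of the sum in *sams-1* D1 against 51.8% in wild type D1, and 45.9% in *sams-1* D7 against 52.2% in wild type D7. *alg-1* made up 6.61% in *sams-1* D1 against 1.18% in wild type D1, and 3.64% in *sams-1* D7 against 0.976% in wild type D7. *alg-3* made up 3.70% in *sams-1* D1 against 0.259% in wild type D1, and *alg-4* 4.53% in *sams-1* D1 against 0.228% in wild type D1. *hrde-1* thus took its smallest share, and the sperm pair its largest, in *sams-1* D1, with no test made on the shares.

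**Figure D5:**
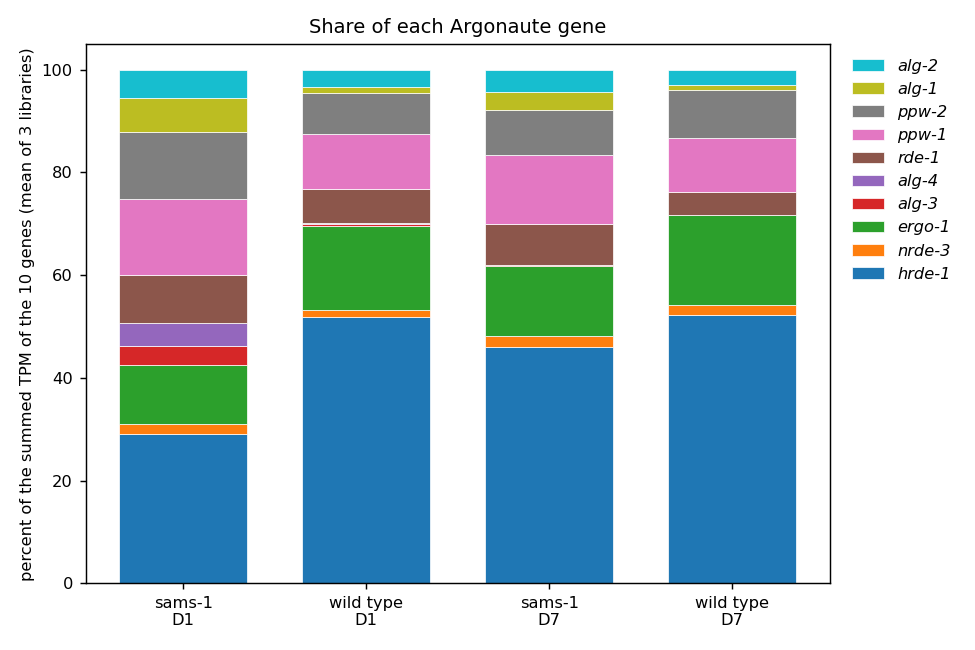
Percent of the summed TPM of the 10 Argonaute genes taken by each gene (y axis, stacked from 0, mean of 3 libraries) in the 4 groups (x axis). *hrde-1*, at the bottom of each bar, takes 29.1% in *sams-1* D1 and 51.8% in wild type D1, and *alg-3* and *alg-4* are visible as bands in *sams-1* D1.

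Most other genes of the small RNA pathways were also lower in *sams-1*, while the dsRNA transport genes went both ways. Relative to the germ line markers, which fell in the same libraries, no gene of these lists was lower at either age. On that scale only 0.0849% of all genes tested were lower at D1 and 0.123% at D7, so this absence does not set the lists apart. By the same scaling 61.5% of all genes tested were higher at D1 and 80.5% at D7. Beside these shares, the further Argonautes had 4 higher at D1 and 3 at D7, the miRNA genes 2 and 6, the polymerase and ERI genes 5 and 6, the mutator genes 0 and 9, the nuclear RNAi genes 1 and 5, and the dsRNA transport genes 4 and 6. On the TMM scale, of 10 further Argonautes 6 fell and 1 rose at D1, and 6 of the 9 tested fell and none rose at D7. *prg-1*, the piRNA Argonaute, averaged 145 ± 35.0 CPM in *sams-1* D1 and 383 ± 102.5 CPM in wild type D1 (SD, n = 3 each; log2 fold change -1.58, edgeR adjusted p = 0.00455), and 169 ± 29.0 CPM in *sams-1* D7 and 669.9 ± 45.3 CPM in wild type D7 (-1.91, edgeR adjusted p = 7.8e-06). *wago-4*, a secondary Argonaute of the germ line, averaged 69.96 ± 23.1 CPM in *sams-1* D1 and 227 ± 49.0 CPM in wild type D1 (-1.88, edgeR adjusted p = 0.00354), and *wago-1* averaged 301 ± 40.7 CPM in *sams-1* D7 and 1022 ± 48.9 CPM in wild type D7 (-1.69, edgeR adjusted p = 8.1e-06). The 1 Argonaute that rose at D1 was *wago-10*, which averaged 16.5 ± 8.10 CPM in *sams-1* D1 and 1.298 ± 1.299 CPM in wild type D1 (3.47, edgeR adjusted p = 0.00857).

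The factors that make and amplify small RNAs were also mostly lower, beside 16.8% of all genes tested at D1 and 29.4% at D7. Of 11 genes for miRNA processing and the silencing complex 8 fell at D1 and 10 at D7 and none rose (median log2 fold changes -1.35 and -1.18). Among them *dcr-1*, which encodes Dicer, averaged 88.5 ± 5.38 CPM in *sams-1* D1 and 218 ± 44.8 CPM in wild type D1 (-1.49, edgeR adjusted p = 0.00289), and 75.7 ± 9.58 CPM in *sams-1* D7 and 235.0 ± 25.9 CPM in wild type D7 (-1.56, edgeR adjusted p = 1.2e-05). *nhl-2*, a silencing cofactor, fell at D1 (-1.57, edgeR adjusted p = 0.00393) and *cgh-1*, a germ granule helicase, at D7 (-1.77, edgeR adjusted p = 1.2e-05). All 13 mutator and secondary siRNA genes fell at D7 and 12 of them at D1 and none rose. Those with the smallest adjusted p were *mut-16*, the scaffold of the mutator focus, at D1 (-1.73, edgeR adjusted p = 0.00285) and D7 (-1.32, edgeR adjusted p = 1.5e-05), *nyn-2* at D1 (-1.90, edgeR adjusted p = 0.00315) and *mut-7*, an exonuclease, at D7 (-1.43, edgeR adjusted p = 1.1e-05).

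Of 13 RNA-dependent RNA polymerase and ERI complex genes 5 fell and none rose at D1, and 11 fell and 1 rose at D7. The polymerase gene *rrf-3*, which acts upstream of 26G siRNAs, fell at D1 (-1.52, edgeR adjusted p = 0.0035), as did its partner *eri-3* (-1.58, edgeR adjusted p = 0.00291). At D7 the germ line polymerase gene *ego-1* fell (-1.76, edgeR adjusted p = 1.2e-05), as did the exonuclease gene *eri-1* (-1.16, edgeR adjusted p = 2.2e-05), and the 1 that rose was *rrf-2* (1.26, edgeR adjusted p = 0.000526). Of 7 nuclear RNAi genes 5 fell at D1 and 6 at D7 and none rose, among them the histone methyltransferase genes *met-2* (-1.67 at D1, edgeR adjusted p = 0.00364, and -1.10 at D7, edgeR adjusted p = 3.7e-05) and *set-25* (-1.48 at D1, edgeR adjusted p = 0.00447), and the heterochromatin protein gene *hpl-2* (-1.02 at D7, edgeR adjusted p = 3.0e-05).

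The 7 dsRNA transport genes divided, with 2 higher and 3 lower at each age. Of all genes tested, 17.4% were higher and 16.8% lower at D1, and 35.6% were higher and 29.4% lower at D7. *sid-2*, an intestinal receptor for dsRNA from the gut, averaged 42.5 ± 10.4 CPM in *sams-1* D1 and 2.85 ± 1.31 CPM in wild type D1 (3.69, edgeR adjusted p = 0.0026), and 80.95 ± 5.76 CPM in *sams-1* D7 and 14.1 ± 2.04 CPM in wild type D7 (2.59, edgeR adjusted p = 5.3e-06). *rsd-3* rose at D1 (1.10, edgeR adjusted p = 0.00933) and *sid-5* at D7 (1.29, edgeR adjusted p = 0.00186). *sid-1*, the dsRNA channel, averaged 19.3 ± 2.11 CPM in *sams-1* D1 and 72.2 ± 9.62 CPM in wild type D1 (-2.09, edgeR adjusted p = 0.0026), and *rsd-6* fell at both ages (-1.73 at D1, edgeR adjusted p = 0.00297, and -0.95 at D7, edgeR adjusted p = 3.8e-05), with *rsd-2* lower at D7 (-0.83, edgeR adjusted p = 7.4e-05). Beside *sid-2*, the 17 intestine markers summed to 3219 to 6244 CPM in *sams-1* D1 against 959 to 1315 CPM in wild type D1, and to 3985 to 7679 CPM in *sams-1* D7 against 1384 to 1761 CPM in wild type D7; their part in its values was not tested.

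Across the 12 libraries, the named genes whose profile lay nearest to each Argonaute were found among 7573 genes by the root mean square difference of log2 CPM centred on each gene's mean. For *hrde-1*, which spanned 3.29 log2 units, these were *let-99*, a spindle positioning gene (0.117 log2 units), and *gla-3*, a germ line zinc finger gene (0.127). For *ergo-1*, spanning 3.22, they were *tpxl-1*, an activator of Aurora A kinase (0.148), and *htp-3*, a protein of the meiotic chromosome axis (0.155). For *alg-1*, spanning 1.72, they were *egl-30*, a G protein alpha subunit (0.145), and *sek-1*, a p38 pathway kinase (0.182), and for *alg-2*, *dhc-1*, the dynein heavy chain (0.137), and *dnj-25* (0.138). The sperm pair had looser neighbours, *clec-79* (0.361) and *kel-10* (0.517) for *alg-3* and *kel-10* (0.464) and *ttbk-4* (0.465) for *alg-4*, over spans of 6.15 and 7.06. For *rde-1*, spanning 1.41, they were *hmgr-1*, HMG-CoA reductase (0.0871), and *vps-54* (0.110), for *nrde-3*, spanning 2.31, *sinh-1* (0.199) and *rict-1*, Rictor (0.220), for *ppw-1*, spanning 1.70, *trpp-11* (0.0895) and *miro-1* (0.107), and for *ppw-2*, spanning 2.03, *nol-6* (0.115) and *nono-1* (0.174). All these profiles share the same libraries and their depth, so the nearness is a description.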

How the data were processed

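RNA of whole animals was measured in 12 libraries, 3 per group, with replicate numbers 1, 3 and 5 from the labels. Per the labels and the submitters' processing notes, the authors used Trimmomatic 0.39, STAR 2.710b, RSEM 1.3.3 and DESeq2 1.38, and the study's methods name the ws245 annotation. The authors deposited an RSEM expected count per gene, which need not be whole because reads of near-identical genes are split (at most 2.41% of genes in a library). The deposited TPM and the deposited FPKM come from the same step, corrected for effective transcript length.

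After rounding, expected counts went into edgeR 4.0.16 under R 4.3.3. TMM factors, filterByExpr and the quasi-likelihood F test were used, on 6 libraries within an age and on 12 for age and the interaction. Benjamini-Hochberg adjustment ran over all genes tested, with calls at an adjusted p under 0.01. The study's own threshold also asks for a 2-fold change, which is one of the alternatives. SEs are those implied by the F statistic. CPM uses TMM factors of the 12 libraries. Levels of different genes were compared in TPM only. Python 3.11.15 and pandas 2.3.3 read the files, and the test was checked on simulated data. Strand could not be used for overlapping genes. Gene places are from WBcel235 (Ensembl release 115).

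The 10 members and all gene lists were chosen with earlier results of these data known. 3 of 175 listed symbols were not matched. Named genes are the members, *sams-1*, up to 2 genes per direction of each small RNA list with the smallest adjusted p, and the 2 nearest profiles of each member. The study's text calls them independent biological replicates, and the labels give a replicate number only. Depth is 3939023 to 7568388 counts per library, and intervals on summed counts cover counting error only. Alternatives were other scalings, DESeq2 1.42.0, no filter, other thresholds, other sets of libraries, each library left out in turn, and a replicate block.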

Additional observations from a re-analysis of the deposited data

How the results depend on the processing

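The 5 members other than *alg-2* and *rde-1* that fell at D7 passed under all 15 alternatives run for that comparison. Germ line marker scaling, run as a comparison of its own, is not among these 15. On that scale none of the 5 was lower at D7, and *ppw-1* was higher (0.45, edgeR adjusted p = 0.00524). The replicate numbers showed no clear pairing of the samples. Deviations of same-numbered libraries correlated between -0.323 and 0.195, and in 5 of 12 pairs a library matched its own number best. With 3 libraries per group this check cannot exclude pairing. With the replicate block, 1 member rose at D1 and 0 fell with age in wild type, where *alg-3* (-3.81) and *alg-4* (-5.87) kept folds of like size. With 12 libraries in 1 fit, 2 rose at D1, and with only the 6 libraries of the genotype 0 fell in wild type with age, since *alg-3* and *alg-4* did not pass the filter there, and *alg-1* turned to -0.077. Of all genes tested, 1529 of 12956 rose at D1 with the replicate block and 4669 of 14193 with 12 libraries in 1 fit. DESeq2 gave 2 higher and 7 lower at D1, and turned *alg-1* with age in wild type (-0.044), *alg-2* with age in *sams-1* (0.0535) and the *ppw-1* interaction (0.12); DESeq2 size factors in edgeR turned the same 3 (-0.0439, 0.0529 and 0.12). An adjusted p under 0.05 gave 2 higher and 7 lower at D1, 2 higher with age in *sams-1* and 7 higher relative to germ line markers at D1. At least 2-fold, part of the threshold of the study, left 5 lower at D7 (*alg-2* and *rde-1* dropped out) and 1 higher relative to germ line markers at D7. Library totals ended the *rde-1* calls at D1 and D7, gave 0 lower with age in wild type, and turned *alg-1* there (-0.0182), *alg-2* with age in *sams-1* (0.14) and the interactions of *alg-2* (0.0361) and *ppw-1* (0.18). With no filter, 1 rose at D7, and *alg-1* (-0.13) and *alg-2* (-0.026) with age in wild type and the *ppw-1* interaction (0.0682) turned.

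Muscle marker scaling, which moved the median of all genes to -1.07 at D1 and -0.97 at D7, took *alg-3* and *alg-4* at D1 to 0.62 and 1.12, and gave 7 lower at D1, 6 higher and 1 lower with age in wild type and 7 higher with age in *sams-1*. Of all genes tested, it gave 5121 of 12956 lower at D1. With age it gave 3832 of 14193 higher and 373 lower in wild type, and 7973 of 14193 higher in *sams-1*. It turned *alg-1* at D1 (-0.80) and D7 (-0.78), *rde-1* with age in wild type (0.84), *alg-1* (1.07), *alg-2* (1.60) and *ppw-2* (1.42) with age in *sams-1*, and the interactions of *alg-2* (0.29), *alg-3* (0.0607), *nrde-3* (0.19) and *ppw-1* (0.47). Oocyte markers in place of germ line markers gave 7 higher at D1 and 2 at D7, and turned *ergo-1* (1.37) and *hrde-1* (0.84) at D1 and *ppw-2* (-0.0419) at D7. With oocyte markers, 9641 of all 12956 genes tested were higher at D1 and 9298 of 12242 at D7. Without wild type D1 replicate 5 and *sams-1* D1 replicate 1 together, 2 rose at D1, 0 fell with age in wild type, 2 rose with age in *sams-1*, 1 had a higher interaction and 7 were higher relative to germ line markers at D1, and the interactions of *alg-4* (-0.30) and *nrde-3* (0.13) turned. Of all genes tested in these fits, 4343 of 13664 rose at D1 and 2288 of 14724 rose with age in *sams-1*. The interaction was higher for 663 of 14724, and 10564 of 13664 were higher relative to germ line markers at D1. The FPKM order of levels held the same member at all 40 rank positions as TPM. The causes were not tested.

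The share of all genes that passed with a library left out was not counted. With each library left out in turn, members higher and lower numbered 0 to 2 and 0 to 5 at D1. At D7, 0 to 1 were higher. With age in wild type 0 to 2 were lower. With age in *sams-1*, 0 to 2 were higher and 0 to 2 lower. The interaction had 0 to 1 higher. Relative to germ line markers 0 to 7 were higher at D1 and 2 to 4 at D7. Values whose sign turned ranged, with age in wild type, from -0.14 to 0.35 (*alg-1*) and -0.0483 to 0.48 (*alg-2*), and with age in *sams-1* from -0.0624 to 0.34 (*alg-2*), -0.10 to 0.48 (*rde-1*) and -0.24 to 0.16 (*ppw-2*). The interactions ranged from -0.86 to 0.0074 (*alg-1*), -0.55 to 0.27 (*alg-2*), -1.69 to 0.12 (*alg-3*), -0.10 to 3.57 (*alg-4*), -0.10 to 0.82 (*ergo-1*), -0.85 to 0.21 (*nrde-3*) and -0.35 to 0.31 (*ppw-1*). Relative to germ line markers *ergo-1* at D1 ranged from -0.22 to 0.10 and *ppw-2* at D7 from -0.0146 to 0.12. The log2 ratio difference, averaged over both ages, ranged from -0.97 to -0.66 for *hrde-1* to *nrde-3* and from -0.0157 to 0.20 for *ppw-1* to *ppw-2*. Depth limits *alg-3* and *alg-4* at D7, where single counts decide the ratios.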
